A study of Mus musculus with 8 samples.

Results

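The TGF-beta, BMP and Smad pathway genes were examined in whole spinal cord RNA from SJL/J mice with experimental autoimmune encephalomyelitis (EAE) and from healthy control mice. The genes were taken by symbol from the annotation of the Affymetrix MG U74Av2 array. The symbols were those of the TGF-beta ligands and receptors, the BMPs and their receptors, the GDFs, the Smads, activin receptors, inhibin and activin subunits, latent TGF-beta binding proteins, follistatin and its relatives, noggin, chordin, the Tgif factors and the Smurfs. This gave 65 of the 12422 probe sets tested, for 54 of the 8251 genes that have a probe set with 1 symbol. A probe set is a group of short oligonucleotides on the array that together measure a transcript. No probe set carried a Smurf symbol. Of the 54 genes, 45 were measured by 1 probe set and 9 by several. Bmp2k, a kinase named for its induction by BMP2, and Tgfb1i1, a focal adhesion protein induced by TGF-beta1, were matched by their symbols and are not ligands, receptors or Smads.

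EAE is a model of multiple sclerosis in which mice are immunized with a myelin antigen, here a peptide of PLP, and T cells and macrophages enter the spinal cord. There were 5 EAE arrays and 3 control arrays, each with the pooled RNA of 2 female mice aged 8 to 12 weeks. Animals with EAE were taken at an average grade of 2.5, on days 12 to 17, and had received murine serum albumin into a vein 3 hours before death. Control mice were injected with vehicle in place of the peptide and the labels name no albumin for them, so EAE and albumin cannot be told apart. The authors also used Complete Freund's Adjuvant and pertussis toxin to induce EAE. Their paper does not say whether control mice received these, so their part cannot be told apart either. By their labels the arrays fell into 5 batches. Batches 1, 2 and 3 held an EAE and a control array each, and batches 4 and 5 an EAE array only.

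Signals are log2 values normalized between arrays by the authors, so that a difference of 1 is a doubling of signal. Correlations between arrays lay between 0.975 and 0.991 within EAE, between 0.990 and 0.995 within control and between 0.931 and 0.951 across the groups. The 3' signal of Gapdh exceeded its 5' signal, a gap that widens as RNA degrades. This gap was 1.46 and 2.07 on EAE arrays 1 and 4 and 0.46 to 0.78 on EAE arrays 2, 3 and 5. The control arrays gave 0.53 to 0.97. With beta-actin the gap was 2.35 and 2.79 on EAE arrays 1 and 4 and 1.11 to 1.83 on EAE arrays 2, 3 and 5. Control arrays gave 1.62 to 2.29, so by beta-actin EAE array 1 was close to the highest control. Markers of cell types of the labelled tissue were measured on all arrays, with a mean log2 signal of 8.36 to 8.74 in EAE arrays and 8.56 to 8.61 in controls for astrocyte markers. Probe sets differ in affinity, so the levels of different lists are not compared. In whole tissue, fewer cells of a type and less RNA per cell cannot be told apart.

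TGF-beta family ligands are secreted dimers that bind pairs of type I and type II serine/threonine kinase receptors. TGF-beta and activin receptors phosphorylate Smad2 and Smad3, and BMP receptors phosphorylate Smad1 and Smad5, which then join Smad4 and enter the nucleus. TGF-beta itself is secreted in a latent complex, tethered to the matrix by latent TGF-beta binding proteins, and must be released before it can signal. In the central nervous system TGF-beta1 is known as an anti-inflammatory cytokine that maintains the resting state of microglia, and BMPs are known to direct progenitors toward astrocytes.

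For 9 of these genes, 10 probe sets differed between EAE and control mice. Tgif1, Tgfb1, Bmp2k, Smad1 and Bmp1 were up-regulated in EAE, and Ltbp4, Smad7, Tgfb3 and Inhbb were lower. With treatment and batch in a linear model (limma, adjusted p under 0.05 over all probe sets), 6 of the 65 probe sets were higher in EAE (9.23%) and 4 were lower (6.15%). Over all probe sets tested 8.26% were higher and 11.4% were lower, and 19.6% were called in either direction, against 15.4% of the pathway probe sets. The share called was thus near that of the whole array. Their median log2 fold change was 0.00, against -0.05 over all probe sets, and the median of its size was 0.08, against 0.13. Fold changes of at least 0.5 on the log2 scale, in either direction, were found for 5 of the 65 probe sets (7.69%), against 12.8% of all probe sets. When each array was centred on its median, 5 were higher and 6 were lower (7.81% and 13.8% of all probe sets). Without an array of batch 3 there were 2 higher and 0 lower (4.19% and 1.81% of all). Leaving out an array of batch 2 gave 3 higher and 2 lower (5.72% and 4.6% of all).

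**Figure D1:**
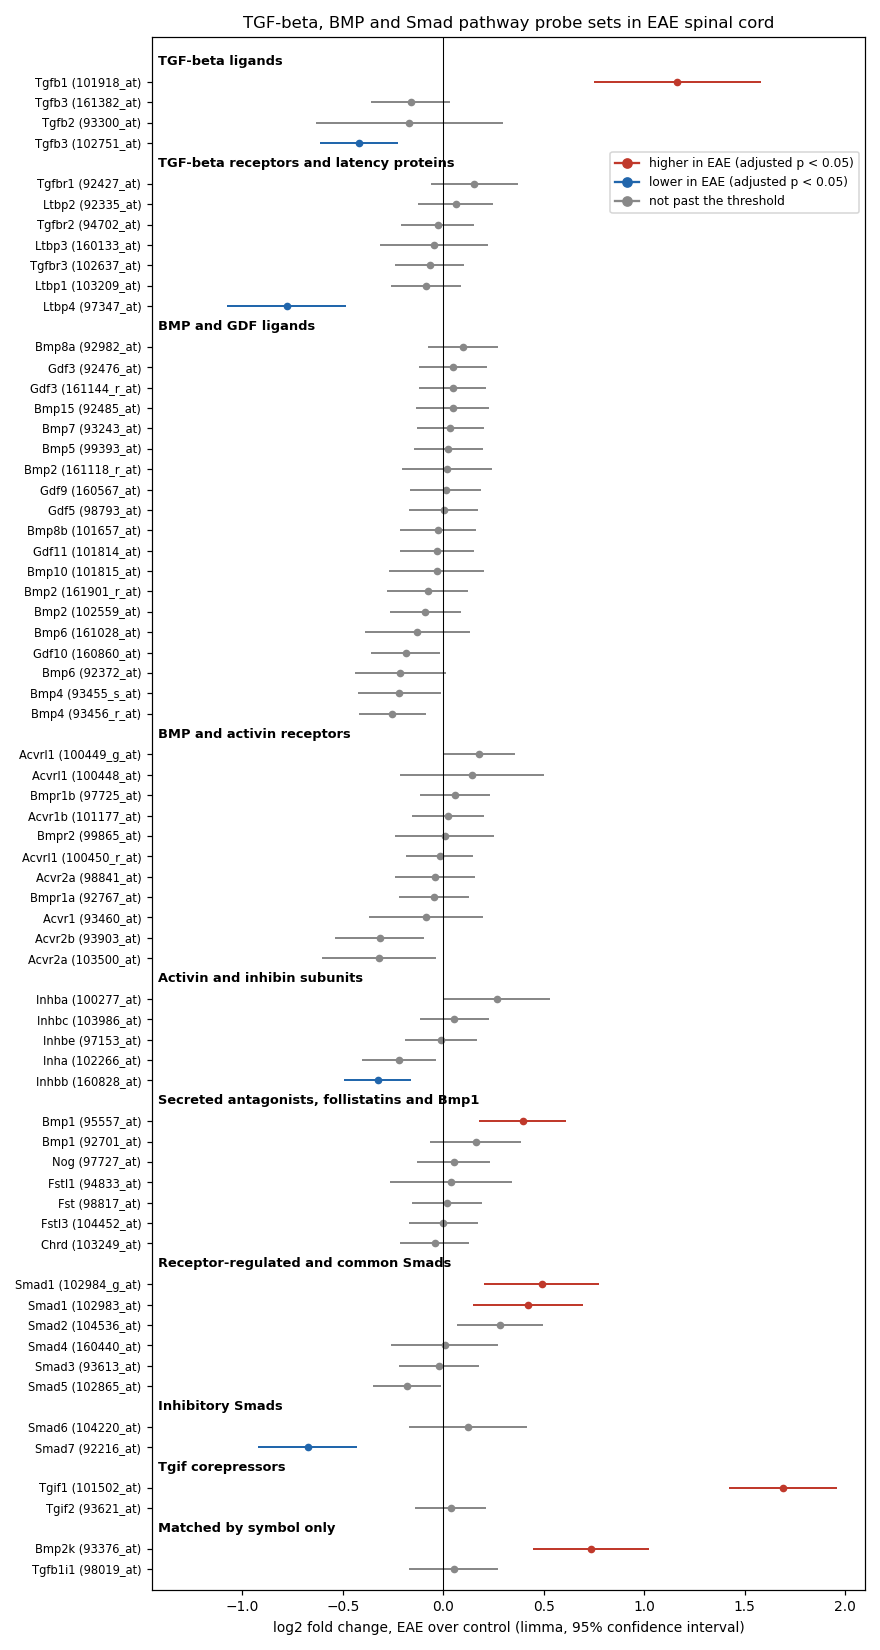
Log2 fold change of EAE over control for the 65 probe sets, grouped by role, with 95% confidence intervals from limma. Tgif1 lies furthest to the right at 1.69 and Ltbp4 furthest to the left at -0.78, and 37 of the 65 points lie within 0.1 of 0.

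Tgif1 and Tgfb1 were the members with the largest rise. Tgif1 is a homeodomain repressor that binds Smad2 in the nucleus and recruits histone deacetylases. Its probe set 101502_at had a log2 signal of 6.76, 6.60, 6.79, 7.08 and 6.86 in EAE arrays 1 to 5, against 4.92, 5.17 and 5.00 in control arrays 1 to 3. Every EAE array lay far above every control array. The fold change was 3.23 (95% confidence interval 2.69 to 3.87, log2 fold change 1.69, standard error 0.102, adjusted p = 0.000993 from limma), and the log2 difference between the arrays of batches 1, 2 and 3 was 1.84, 1.44 and 1.79. Its relative Tgif2 averaged 6.50 ± 0.06 in EAE (SD, n = 5) and 6.49 ± 0.04 in control (SD, n = 3), a log2 fold change of 0.04 with an interval of -0.13 to 0.21.

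Among the 3 TGF-beta ligands, Tgfb1 rose and Tgfb3 fell, while Tgfb2 was not past the threshold. Tgfb1 (101918_at), the form that immune cells secrete, was at 5.77, 5.80, 6.64, 6.02 and 5.88 in EAE arrays 1 to 5 and at 4.78, 4.93 and 5.01 in control arrays 1 to 3. The groups did not overlap, and EAE array 3, from mice killed on day 17, stood above the other EAE arrays. The fold change was 2.24 (95% confidence interval 1.69 to 2.98, log2 fold change 1.17, standard error 0.161, adjusted p = 0.0107 from limma). The log2 difference was 0.99 in batch 1, 0.88 in batch 2 and 1.63 in batch 3. Without an array of batch 3 the log2 fold change of Tgfb1 was 0.93 (adjusted p = 0.0267), and without EAE array 3 but with all controls and no batch term it was 0.96 (adjusted p = 0.000155).

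Macrophage and microglia markers were also higher in EAE. Of 18 probe sets of this list 14 were higher (77.8%, against 8.26% of all probe sets) and 0 were lower, and the sum of their linear signals was 7364 to 10901 in EAE arrays and 1536 to 1693 in control arrays. The mean log2 signal of the list was 7.85 in EAE array 3, the array with the highest Tgfb1, and 7.41 to 7.53 in EAE arrays 1, 2, 4 and 5. Tgif1 was highest in EAE array 4 (7.08), where the mean of the list was 7.43, and was at 6.79 in EAE array 3. Other markers of immune cells were higher too. Of the neutrophil probe sets 5 of 8 were higher (62.5%) and 0 were lower. Of the T cell probe sets 5 of 10 were higher (50%) and 1 was lower. The part of macrophages, microglia, neutrophils or T cells in the rise of Tgif1 and Tgfb1 was not tested.

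Tgfb3, an isoform that binds the same receptors, had 2 probe sets of very different signal. The brighter, 102751_at, was at 6.36, 6.67, 6.79, 6.49 and 6.30 in EAE arrays 1 to 5, against 6.84, 6.96 and 7.28 in control arrays. All EAE arrays lay below all control arrays, but the nearest of them were close to each other. The log2 fold change was -0.42 (95% confidence interval -0.61 to -0.23, standard error 0.0744, adjusted p = 0.0208 from limma). The other probe set, 161382_at, averaged 4.21 ± 0.02 in EAE (SD, n = 5) and 4.36 ± 0.11 in control (SD, n = 3) and was not past the threshold (adjusted p = 0.215), although its groups did not overlap either. Without an array of batch 1, 2 or 3 the adjusted p of the brighter probe set was 0.0612, 0.0503 and 0.119. Neuron markers, of which 8 of 12 probe sets were lower in EAE and 0 were higher, had a mean log2 signal of 8.76 to 8.88 in EAE arrays and 9.42 to 9.47 in controls, and their part in the fall of Tgfb3 was not tested. Tgfb2 (93300_at) varied widely among the EAE arrays, from 5.59 and 5.63 in arrays 2 and 5 to 6.35 in array 3, against 6.16 to 6.29 in controls. For Tgfb2 the log2 fold change of -0.17 had an interval of -0.63 to 0.29.

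Of the TGF-beta receptors and latency proteins only the latent TGF-beta binding protein Ltbp4 was past the threshold. Ltbp4 (97347_at), which ties latent TGF-beta1 to the extracellular matrix and takes part in elastic fibre assembly, was at 5.97, 6.09, 6.56, 6.21 and 5.92 in EAE arrays 1 to 5, against 7.03, 6.64 and 7.29 in controls. The highest EAE array, array 3, came close to the lowest control, array 2, but the groups did not overlap. The fold change was 0.583 (95% confidence interval 0.476 to 0.713, log2 fold change -0.78, standard error 0.114, adjusted p = 0.0125 from limma), with log2 differences of -1.06, -0.55 and -0.73 in batches 1, 2 and 3. Its paralogs Ltbp1, Ltbp2 and Ltbp3 had log2 fold changes of -0.09, 0.06 and -0.04, with intervals that reached no further than -0.31 and 0.24. The type I receptor Tgfbr1 was at 0.15 (interval -0.06 to 0.37), the type II receptor Tgfbr2 at -0.03 (-0.20 to 0.15) and the coreceptor Tgfbr3 at -0.07 (-0.24 to 0.10). None of these intervals holds a change as large as that of Ltbp4. The probe sets of these receptors and of Ltbp1 and Ltbp2 were dim, with means below 6.12, the median signal of all probe sets. A narrow interval of a dim probe set need not show an unchanged transcript. Ltbp3 was brighter, with a mean of 7.11.

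The Smads moved in both directions. Smad1, which carries BMP signals, was measured by 2 probe sets that were both higher in EAE. Probe set 102984_g_at was at 8.64, 8.56, 8.79, 8.38 and 8.69 in EAE arrays 1 to 5, against 8.37, 8.11 and 8.04 in controls. EAE array 4 exceeded control array 1 only marginally. Its log2 fold change was 0.49 (95% confidence interval 0.21 to 0.77, standard error 0.110, adjusted p = 0.0381 from limma). Probe set 102983_at had a log2 fold change of 0.42 (0.15 to 0.69, adjusted p = 0.0499), just inside the threshold. With an array of batch 1, 2 or 3 left out the adjusted p was 0.101, 0.0652 and 0.173 for 102983_at and 0.0291, 0.120 and 0.136 for 102984_g_at. Smad5, the other BMP-responsive Smad measured, was dim and averaged 4.74 ± 0.04 in EAE (SD, n = 5) and 4.89 ± 0.06 in control (SD, n = 3), with a log2 fold change of -0.18 (interval -0.35 to -0.02, adjusted p = 0.122). Whether Smad1 and Smad5 differed from each other was not tested.

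Smad2, which carries TGF-beta and activin signals, was at 7.59, 7.34, 7.24, 7.56 and 7.37 in EAE arrays 1 to 5 and at 7.16, 7.07 and 7.09 in controls. The groups did not overlap, but the log2 fold change of 0.28 (standard error 0.0810) had an adjusted p of 0.0737 from limma. Without the batch term, when EAE arrays 4 and 5 also count, it was 0.0403. Smad3 had a log2 fold change of -0.02 (interval -0.22 to 0.17) and the common partner Smad4 of 0.01 (-0.25 to 0.27). Smad7, an inhibitory Smad that is induced by TGF-beta and blocks its type I receptor, was the most lowered of the Smads. Its probe set 92216_at was at 7.28, 7.30, 7.45, 7.42 and 7.38 in EAE arrays 1 to 5, against 7.84, 8.19 and 8.03 in controls. The 5 EAE arrays lay close together and well below every control array. The fold change was 0.626 (95% confidence interval 0.530 to 0.739, log2 fold change -0.68, standard error 0.0936, adjusted p = 0.0108 from limma). Smad6, the inhibitory Smad that mainly opposes BMP signals, averaged 5.22 ± 0.06 in EAE (SD, n = 5) and 5.09 ± 0.19 in control (SD, n = 3), with an interval of its log2 fold change of -0.17 to 0.41. Of the neuron markers 8 of 12 probe sets were lower (66.7%, against 11.4% of all probe sets), and of the oligodendrocyte markers 2 of 13 (15.4%), with a mean log2 signal of 8.55 to 8.98 in EAE arrays and 9.03 to 9.22 in controls. The part of these cells in the fall of Smad7 and Ltbp4 was not tested. Tgfb1 and Smad7 changed in opposite directions in the same arrays.

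**Figure D2:**
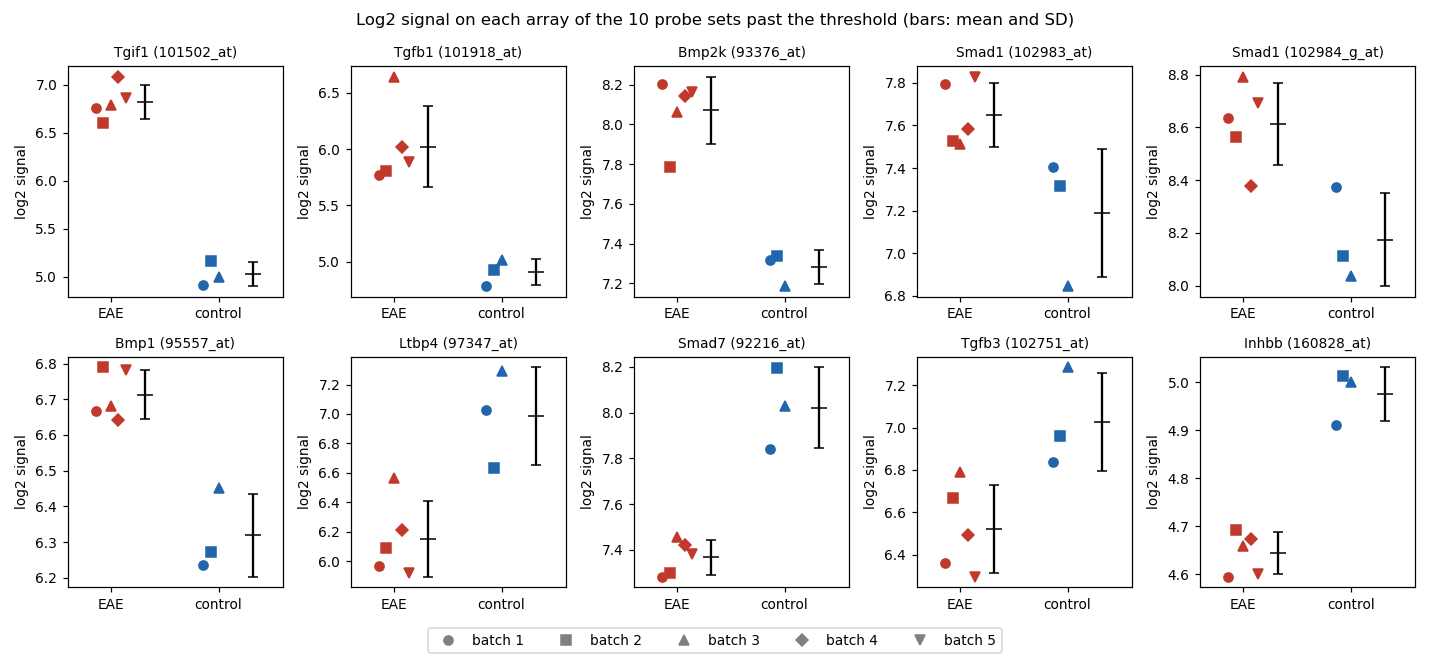
Log2 signal of the 10 probe sets past the threshold on each of the 5 EAE arrays (red, left) and 3 control arrays (blue, right), lines for each group's mean and SD and a symbol for each batch. Tgif1 spans 6.60 to 7.08 on EAE arrays, against 4.92 to 5.17 on control arrays, and Smad7 spans 7.28 to 7.45 on EAE arrays, against 7.84 to 8.19 on control arrays.

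The promoters of 4 members that were past the threshold are given because the arrays measure the transcripts that start there. They are the 250 bases before the start furthest upstream in RefSeq on GRCm38.p6, namely chr17:70853533-70853782 on the minus strand for Tgif1, chr7:25686752-25687001 on the plus strand for Tgfb1, chr8:79399429-79399678 on the minus strand for Smad1 and chr7:27337613-27337862 on the minus strand for Ltbp4. Capitals mark matches, on either strand, to CAGAC (bound by Smads), TTCNNNGAA (STATs), TGANTCA (AP-1) and GGGCGG (Sp1).
Tgif1: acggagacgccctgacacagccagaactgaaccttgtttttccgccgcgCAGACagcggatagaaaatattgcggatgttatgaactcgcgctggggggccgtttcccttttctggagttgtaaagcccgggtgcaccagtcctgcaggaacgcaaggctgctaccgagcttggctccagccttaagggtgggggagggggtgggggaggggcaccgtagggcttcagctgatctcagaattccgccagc
Tgfb1: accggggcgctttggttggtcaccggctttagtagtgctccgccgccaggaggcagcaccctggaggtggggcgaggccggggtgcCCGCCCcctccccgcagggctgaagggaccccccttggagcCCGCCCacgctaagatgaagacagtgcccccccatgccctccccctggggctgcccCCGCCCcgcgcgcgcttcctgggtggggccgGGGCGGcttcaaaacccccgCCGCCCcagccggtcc
Smad1: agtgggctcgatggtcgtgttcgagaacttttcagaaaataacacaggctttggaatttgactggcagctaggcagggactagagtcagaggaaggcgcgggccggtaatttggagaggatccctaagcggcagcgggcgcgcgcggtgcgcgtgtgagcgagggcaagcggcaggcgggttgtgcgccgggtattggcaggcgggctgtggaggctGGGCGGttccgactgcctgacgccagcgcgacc
Ltbp4: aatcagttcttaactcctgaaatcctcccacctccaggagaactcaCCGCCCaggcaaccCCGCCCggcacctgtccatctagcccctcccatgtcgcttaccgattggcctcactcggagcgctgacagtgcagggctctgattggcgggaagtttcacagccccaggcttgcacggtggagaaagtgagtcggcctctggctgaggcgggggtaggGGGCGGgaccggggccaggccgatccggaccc
At these furthest starts the Tgif1 promoter holds CAGAC once and none of the other motifs. Those of Tgfb1, Smad1 and Ltbp4 hold GGGCGG 5, 1 and 3 times and none of the others. Of the 51 promoters listed for 39 of the member genes, 24 hold CAGAC (47.1%, against 42.2% of all 32851 promoters) and 32 hold GGGCGG (62.7%, against 32.7%). TTCNNNGAA was found in 2 (3.92%, against 7.02%) and TGANTCA in 0 (against 6.75%). GGGCGG is made of G and C only. The printed promoters of Tgif1, Tgfb1, Smad1 and Ltbp4 were 59.6, 75.2, 63.6 and 64.4% G and C, and the median of promoters was 52.4%. Promoters of 1 gene can overlap, as 2 of Ltbp4 do. The part of base composition and overlap in these shares was not tested. None of the motifs contains another, and overlapping matches to 1 motif were counted separately. RefSeq lists 5 starts for Tgif1 and 3 for Ltbp4, and the arrays do not tell which was used. The motifs differ between the starts. Among the other Tgif1 promoters 1 holds CAGAC 2 times, 1 holds GGGCGG 5 times, 1 holds both motifs once and 1 holds TTCNNNGAA once. The other Ltbp4 promoters hold GGGCGG 5 and 7 times.

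None of the 19 probe sets of 14 BMPs and GDFs was past the threshold, with log2 fold changes between -0.25 and 0.10. Most were dim, with 15 of 19 below the median signal of the array. Bmp4, which promotes astrocyte fate, was lower in all EAE arrays than in all control arrays with both of its probe sets. Probe set 93456_r_at was at 6.48, 6.54, 6.56, 6.18 and 6.15 in EAE arrays 1 to 5, against 6.74, 6.81 and 6.78 in controls, and the lowest values were those of batches 4 and 5, which hold no control. With the batch term its log2 fold change of -0.25 (standard error 0.0632) had an adjusted p of 0.0507, and it was -0.40 (adjusted p = 0.0364 from limma) without it. For 93455_s_at it was -0.22 (adjusted p = 0.126) with the batch term and -0.25 (adjusted p = 0.0332) without it. Gdf10, also known as BMP3B, averaged 5.26 ± 0.04 in EAE (SD, n = 5) and 5.46 ± 0.05 in control (SD, n = 3), a log2 fold change of -0.19 (adjusted p = 0.115 with and 0.0317 without the batch term). Bmp6 (92372_at) had the largest change among the BMPs whose groups overlapped (-0.21, adjusted p = 0.165). The groups did not overlap for a dim probe set of Bmp2 (102559_at, log2 fold change -0.09, adjusted p = 0.440) and for Bmp8a (0.10, adjusted p = 0.382), while the brightest Bmp2 probe set, 161901_r_at, was at -0.08 (interval -0.27 to 0.12). The suffixes r and s mark probe sets whose probes were picked under relaxed rules or match several transcripts.

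The receptors for BMPs and activins were not past the threshold either, with 11 probe sets for 8 genes. The activin type II receptors Acvr2b and Acvr2a had the largest values. Acvr2b (93903_at) was at 5.89, 5.84, 5.86, 5.96 and 5.53 in EAE arrays 1 to 5, against 6.04, 6.20 and 6.30 in controls. Its groups did not overlap, and the log2 fold change of -0.32 had an adjusted p of 0.0599 with the batch term and 0.0437 without it. For Acvr2a the brighter probe set, 103500_at, had a log2 fold change of -0.32 (interval -0.60 to -0.04, adjusted p = 0.110) and the other, 98841_at, of -0.04 (-0.24 to 0.15). The BMP receptors Bmpr1a, Bmpr1b and Bmpr2 were at -0.05, 0.06 and 0.01, with intervals between -0.23 and 0.25. Acvrl1, a type I receptor of endothelial cells, had 3 probe sets between -0.02 and 0.18.

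Of the activin and inhibin subunits, Inhbb was lower in EAE. Inhbb, the beta B subunit of activin B and inhibin B, was dim, at 4.59, 4.69, 4.66, 4.67 and 4.60 in EAE arrays 1 to 5 and 4.91, 5.01 and 5.00 in controls. The groups were clearly apart, and the log2 difference was nearly the same in batches 1, 2 and 3 (-0.32, -0.32 and -0.34). The log2 fold change was -0.33 (95% confidence interval -0.49 to -0.17, standard error 0.0627, adjusted p = 0.0253 from limma). It did not pass without an array of batch 1, 2 or 3 (adjusted p = 0.0678, 0.106 and 0.124). Inha, the alpha subunit that distinguishes inhibins from activins, averaged 6.22 ± 0.09 in EAE (SD, n = 5) and 6.47 ± 0.03 in control (SD, n = 3), a log2 fold change of -0.22 with an adjusted p of 0.0929 with and 0.0287 without the batch term. Inhba, the beta A subunit of activin A, was at 6.54, 6.38, 6.23, 6.43 and 6.23 in EAE arrays and 6.05, 6.12 and 6.19 in controls. All its EAE arrays were higher than all control arrays, but its log2 fold change of 0.27 did not pass (interval 0.01 to 0.53, adjusted p = 0.144). Inhbc and Inhbe were at 0.05 and -0.01.

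The secreted antagonists noggin and chordin and the follistatins gave intervals that lay between -0.26 and 0.34, with log2 fold changes of 0.05 for Nog, -0.04 for Chrd, 0.02 for Fst, 0.04 for Fstl1 and 0.00 for Fstl3. Bmp1 is a metalloproteinase of the extracellular matrix that cleaves chordin and procollagens and is not a TGF-beta family ligand. Its probe set 95557_at was at 6.67, 6.79, 6.68, 6.64 and 6.78 in EAE arrays 1 to 5, against 6.23, 6.27 and 6.45 in controls, and the groups did not overlap. Its log2 fold change of 0.39 passed the test (95% confidence interval 0.18 to 0.61, standard error 0.0822, adjusted p = 0.0314 from limma), and without an array of batch 1, 2 or 3 the adjusted p was 0.0859, 0.130 and 0.0722. The second Bmp1 probe set, 92701_at, had a log2 fold change of 0.16 (interval -0.06 to 0.38, adjusted p = 0.280).

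Bmp2k (93376_at), a kinase related to the endocytic adaptor kinase Aak1, was at 8.20, 7.78, 8.06, 8.14 and 8.16 in EAE arrays 1 to 5, against 7.32, 7.34 and 7.19 in controls. The lowest EAE array still lay above the highest control. The fold change was 1.66 (95% confidence interval 1.37 to 2.03, log2 fold change 0.73, standard error 0.111, adjusted p = 0.0135 from limma). Tgfb1i1 (98019_at) had a log2 fold change of 0.05 (interval -0.16 to 0.27).

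The signal of a probe set went along with whether it was called. Of the 22 pathway probe sets above the median signal of the array 8 were called (36.4%, against 29.5% of all such probe sets), and of the 43 below it 2 were called, Tgfb1 and Inhbb (4.65%, against 9.71%). The deposited values hold no detection calls, so a dim probe set cannot be told apart from one whose transcript was not detected. Of the 55 probe sets that were not called, 51 had a 95% confidence interval that lay within 0.5 of 0 on the log2 scale.

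**Figure D3:**
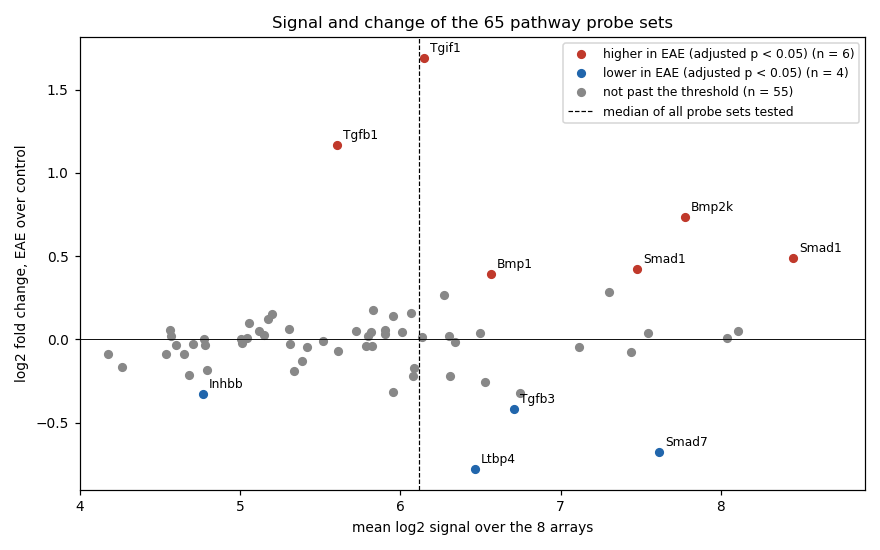
Log2 fold change of EAE over control against the mean log2 signal over the 8 arrays for the 65 probe sets. To the left of the dashed line, the median signal of all probe sets at 6.12, lie 43 probe sets of which 2 were called, and to the right 22 of which 8 were called.

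The linear model with batch rests on the 3 pairs of arrays, whereas the overlap of the groups uses all 8. The EAE and control arrays did not overlap for 21 of the 65 probe sets (32.3%, against 26.1% of all probe sets), 9 of them higher in EAE (13.8%, against 10.9%) and 12 lower (18.5%, against 15.1%). With 56 ways to regroup the 8 arrays, the smallest p that an exact two-sided permutation test can give is 0.0179. The exact permutation test gave p = 0.0179 for 9 of the 10 called probe sets. For the called Tgfb3 probe set the exact permutation test gave p = 0.0357. The exact permutation test also gave p = 0.0179 for uncalled probe sets, namely Inha, Gdf10, Acvr2b, Smad5, Bmp4 93455_s_at and Tgfb3 161382_at. This test leaves out batch. It is no separate check on the calls, because the 10 probe sets were called on the same arrays and do not overlap between the groups. Without the batch term 7 probe sets were higher (8.55% of all probe sets) and 9 were lower (10.3%), which included the 10 called with it. The 6 further probe sets were Smad2, which was higher, and both of Bmp4, Gdf10, Acvr2b and Inha, which were lower. In batches 1, 2 and 3 the direction of change was the same for 30 of the 65 (46.2%, against 53.5% of all probe sets). These include all 10 probe sets called with the batch term. That is no separate check on the calls, because the log2 fold change of that model is the mean of the same 3 differences.

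Other genes of the pathway were taken from 4 lists that do not overlap with the symbols above, with 127 probe sets for 95 genes, of which 29 were higher in EAE (22.8%, against 8.26% of all probe sets) and 10 were lower (7.87%, against 11.4%). Genes that Smads are known to regulate in other cells held most of the rises. Of 42 probe sets for 31 such genes 16 were higher (14 genes, 38.1% of the probe sets) and 4 were lower (9.52%), and the median log2 fold change was 0.36. Many of these genes also respond to other signals. The largest changes were in Tgfbi, a matrix protein induced by TGF-beta (4.24, standard error 0.124), the actin-binding protein Tagln of smooth muscle (2.86, standard error 0.124), the metalloproteinase inhibitor Timp1 (2.27, standard error 0.0805) and a probe set of the stress-induced factor Atf3 (1.67, standard error 0.112). The other probe sets of these genes, all with the suffix r, gave 0.02 for Tgfbi (161157_r_at, adjusted p = 0.904 from limma), -0.0032 for Timp1 (162107_r_at), and 0.47 and 0.01 for Atf3 (104156_r_at and 161645_r_at), of which 104156_r_at passed. A pair of the Id genes, which BMP signals induce, were called in opposite directions, with a log2 fold change of 0.35 for Id1 (adjusted p = 0.0406 from limma) and -0.85 for Id4 (adjusted p = 0.00885). The groups overlapped for Id1, and without the batch term the adjusted p from limma was 0.101 for Id1 and 0.000805 for Id4. Id2 was at 0.60 (adjusted p = 0.125) and Id3 at 0.33 (adjusted p = 0.436).

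Of the extracellular regulators 5 of 35 probe sets were higher (14.3%, against 8.26% of all probe sets) and 0 were lower (against 11.4%), with a median log2 fold change of -0.01. These 5 were decorin, Dcn, which binds TGF-beta (1.15), the matrix protease Mmp14 (0.74), the proprotein convertase Furin, which cleaves the TGF-beta1 precursor (0.56), the endothelial coreceptor Eng (0.39) and biglycan, Bgn (0.38, and 0.11 with a second probe set that did not pass). Of the intracellular regulators 5 of 42 probe sets were higher (11.9%) and 6 were lower (14.3%), shares near those of the whole array, with a median of -0.07. Dab2, an endocytic adaptor that binds Smad2, Smad3 and the TGF-beta receptors, had the largest log2 fold change among them (1.81 and 0.74 with the 2 probe sets that passed and 0.07 with the third). The cell cycle repressor Rbl1 was at 0.58. The coactivator Crebbp (-0.57) and the antiproliferative factor Tob1 (-0.57, and -0.15 with a second probe set that did not pass) were lowest. For Crebbp and the called Bgn probe set the groups overlapped, and without the batch term the adjusted p from limma was 0.167 and 0.194. Zeb1, a repressor that binds Smads, was lower with a bright probe set (99052_at, -0.54) and higher with a dim one (161595_at, 0.42). Of 8 probe sets for 7 microglial genes whose expression depends on TGF-beta, 3 were higher (37.5%, against 8.26% of all probe sets) and 0 were lower (against 11.4%). The 3 were the complement component C1qa (2.76), the anticoagulant Pros1 (1.15) and its receptor Mertk (1.01). The fractalkine receptor Cx3cr1 was at 0.00 (standard error 0.0707). Gas6 was at -0.56 (adjusted p = 0.123 from limma). Slc2a5 was at -0.10 (adjusted p = 0.361), with every EAE array below every control array. C1qa is also 1 of the 18 macrophage and microglia probe sets, of which 14 were higher, and the part of these cells in the list was not tested. Without an array of batch 3 the count over the 4 lists was 12 higher (9.45%, against 4.19% of all probe sets) and 1 lower (0.787%, against 1.81%), and without an array of batch 2 it was 20 higher (15.7%, against 5.72%) and 4 lower (3.15%, against 4.6%).

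**Figure D4:**
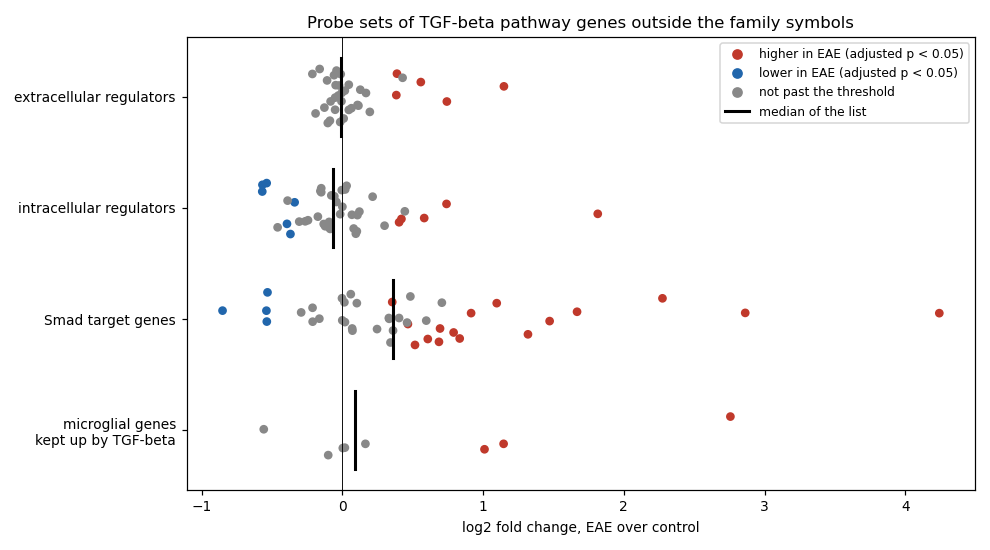
Log2 fold change of EAE over control for each probe set of the 4 lists of further pathway genes, with the median of each list as a black bar. The Smad target genes spread from -0.85 to 4.24 with a median of 0.36, and the medians of the other lists lie between -0.07 and 0.09.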

How the data were processed

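The deposited log2 values, 1 column per array, came from Partek, where the authors used RMA, quantile normalization and a correction for GC content and then took logarithms. Software versions are not given in the sources used here. The analysis dropped 66 control probe sets and set no other filter, and array medians lay between 6.08 and 6.12.

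EAE was compared with control by limma 3.58.1 in R 4.3.3 with treatment and batch as fixed terms, as in the methods, which leaves 2 residual and 3.05 prior degrees of freedom. The p values were two-sided and adjusted by Benjamini-Hochberg over 12422 probe sets with a threshold of 0.05. With batch in the model EAE arrays 4 and 5 do not enter the difference. The labels give arrays with the same number 1 shared batch. As a check, deviations from the group means correlated at 0.302, -0.231 and 0.412 between the arrays of batches 1, 2 and 3. The arrays are pools of separate mice, and their number limits the precision.

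Probe sets were named from the array annotation (10833 with 1 symbol, 396 with several, 1193 with none), and all 65 members matched RefSeq by Entrez identifier with 0 changed symbols. Named are all members called or without overlap, in each role the largest of the rest, every probe set of member genes with unlike calls, and of each list up to 4 called probe sets. The remaining members and Bgn, Id1 to Id4, Cx3cr1, Gas6, Slc2a5, Tob1, Zeb1 and the further probe sets of Tgfbi, Timp1, Atf3 and Dab2 were named after their values were seen. The members, lists, motifs and tests were chosen with earlier results of these data known. The procedure was run on simulated data with normal noise that was independent between arrays, which is no check on the calls made here. The lists of red blood cell, Schwann cell, skeletal muscle and B cell markers held 0 higher probe sets and 0, 1, 0 and 0 lower ones, and those of T cell, neutrophil, endothelial, astrocyte, oligodendrocyte and fibroblast markers 5, 5, 2, 2, 0 and 3 higher and 1, 0, 1, 2, 2 and 1 lower ones. The red blood cell list has only 2 probe sets. Of these Hba-a1 was uneven, at 6.00 to 9.01 in EAE arrays and 6.35 to 7.01 in controls (log2 fold change 1.57, adjusted p = 0.0611 from limma).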

Additional observations from a re-analysis of the deposited data

Results flagged for a closer look

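A single EAE array stood well away from the remaining ones for 3 of the 65 probe sets, and chance alone would mark about 1 in 20. Tgfb1 was higher in EAE array 3 (6.64, others 5.77 to 6.02), while control array 3 of the same batch was at 5.01. Smad6 was lower in EAE array 2 (5.12, others 5.23 to 5.26), where control array 2 was at 5.26. Gdf5, a dim growth factor probe set, was higher in EAE array 2 (4.87, others 4.73 to 4.77), where control array 2 was at 4.82.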

How the results depend on the processing

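The counts of 6 higher and 4 lower pathway probe sets, and of 29 higher and 10 lower probe sets of the further lists, depended on the threshold, the batch term and single pairs of arrays. With each array left out in turn, 21 to 25 pathway probe sets did not overlap. Without an array of batch 1, 2 or 3 the counts called ran from 2 to 4 higher and 0 to 3 lower. For the further lists they ran from 12 to 24 higher and 1 to 7 lower. Leaving out EAE array 4 or 5 cannot change these counts, because with batch in the model those arrays do not enter the difference. The lowest counts were those without an array of batch 3, where 746 of all probe sets were called. There Tgif1 (adjusted p = 0.0213) and Tgfb1 (0.0267) passed, and Smad7 (0.0657), Ltbp4 (0.0851) and Bmp2k (0.0942) did not. With no replicate block 7 were higher and 9 lower, and with batch as a random block 7 and 10 (9.7% and 13.3% of all probe sets). With EAE array 3 left out and no batch term, chosen after seeing the data, 7 were higher and 10 lower (9.3% and 10.9% of all), and with EAE arrays 1 and 4 left out, also chosen after seeing the data, 5 and 5 (7.99% and 8.41%), without Tgfb3 (adjusted p = 0.114) and the dimmer Smad1 probe set (0.124). At a threshold of 0.01 there were 1 higher and 0 lower (4.35% and 2.33% of all), and 11 and 3 in the further lists, and at 0.1 there were 7 and 7 (10.2% and 16.8%). The same linear model without moderation called 0 pathway probe sets and 0 of the further lists, in either direction, and 1 of all probe sets. Over all alternatives the adjusted p, from limma except for that model, ran from 5.11e-06 to 0.134 for Tgif1, 0.000155 to 0.213 for Tgfb1, 0.000502 to 0.190 for Smad7, 0.000523 to 0.209 for Bmp2k, 0.00417 to 0.206 for Ltbp4, 0.00151 to 0.124 for Inhbb, 0.00294 to 0.222 for the brighter Bmp1 probe set, 0.0152 to 0.183 for the brighter Tgfb3 probe set, and 0.0136 to 0.273 and 0.0279 to 0.288 for the brighter and the other Smad1 probe set. Of the 65 log2 fold changes 25 changed sign under some alternative, and 0 of these were of called probe sets or of probe sets without overlap. None of the 25 was larger than 0.17 in size in the report, and the cause was not tested. With arrays left out in turn 22 changed sign, namely Inhbe (-0.054 to 0.017), Bmp10 (-0.10 to 0.069), Bmp15 (-0.0020 to 0.073), Bmp2 161118_r_at (-0.074 to 0.070), Bmp5 (-0.0040 to 0.049), Bmp8b (-0.083 to 0.0039), Gdf11 (-0.066 to 0.015), Gdf5 (-0.022 to 0.027), Gdf9 (-0.022 to 0.044), Acvr1b (-0.018 to 0.054), Acvr2a 98841_at (-0.11 to 0.011), Acvrl1 100448_at (-0.053 to 0.24), Bmpr2 (-0.080 to 0.11), Smad6 (-0.0058 to 0.25), Tgfb1i1 (-0.0028 to 0.14), Smad3 (-0.076 to 0.042), Smad4 (-0.11 to 0.11), Fst (-0.0057 to 0.048), Fstl1 (-0.075 to 0.19), Fstl3 (-0.024 to 0.030), Tgfb2 (-0.33 to 0.10) and Ltbp3 (-0.17 to 0.030). With no replicate block the log2 fold change was -0.018 for Bmp2 161118_r_at, -0.014 for Gdf5, -0.016 for Gdf9, -0.028 for Acvr1b and 0.013 for Smad3. With batch as a random block the log2 fold change was -0.010 for Bmp2 161118_r_at, -0.011 for Gdf5, -0.010 for Gdf9, -0.018 for Acvr1b and 0.0057 for Smad3. With median centring the log2 fold change was -0.015 for Bmp2 161118_r_at, -0.0078 for Bmp5, -0.033 for Gdf5, -0.021 for Gdf9, -0.012 for Acvr1b, -0.026 for Bmpr2, -0.027 for Smad4, -0.015 for Fst and -0.033 for Fstl3. With further quantile normalization the log2 fold change was -0.0023 for Bmp2 161118_r_at, -0.0048 for Bmp5, -0.011 for Gdf5, -0.017 for Gdf9, -0.015 for Acvr1b, -0.017 for Bmpr2 and -0.023 for Fstl3. As the mean over the probe sets of the gene the log2 fold change was -0.049 for Bmp2 161118_r_at and 0.10 for Acvrl1 100450_r_at. Without EAE array 3 and with no batch term the log2 fold change was -0.11 for Bmp2 161118_r_at, -0.0025 for Gdf5, -0.0069 for Gdf9, -0.027 for Acvr1b, 0.00060 for Smad3 and 0.012 for Ltbp3. Without EAE arrays 1 and 4 the log2 fold change was -0.0018 for Gdf5, -0.073 for Gdf9, -0.040 for Acvr1b, -0.046 for Smad4, 0.016 for Chrd and -0.0040 for Tgif2. With array weights the log2 fold change was -0.010 for Bmpr2, -0.023 for Smad4 and -0.0018 for Fstl3. Keeping only bright probe sets gives no value for dim ones, and keeping the brightest per gene none for the others. Of the 65 probe sets 43 lay below the array median, and the values hold no detection calls.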
